A study of Mus musculus with 6 samples.

Results

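The insulin-like growth factor (IGF) genes described here are 10 genes of mouse: the ligands Igf1 and Igf2, the receptors Igf1r and Igf2r, and the binding proteins Igfbp2, Igfbp3, Igfbp4, Igfbp5, Igfbp6 and Igfbp7. They were taken by gene symbol from the platform annotation, which lists 19321 genes, and each of the 10 had 1 probe. RNA came from C57BL/6J astrocytes, the star-shaped support cells of the brain, grown from the cortex of newborn (P0) mice with both Chd7 alleles floxed. Chd7 encodes a chromatin remodeller, and the floxed part of it is cut out by the Cre recombinase. The Cre group is 3 arrays of cells given a Cre lentivirus, and the control group is 3 arrays of cells given a control lentivirus. Both groups carried the floxed alleles and grew in 10% FBS with FGF2, EGF and B-27, and cells were collected 3 days after infection. The promoter of the viruses and the content of the control virus are not named by the labels. Only the Cre cultures held the recombinase, so an effect of Cre itself and one of losing Chd7 cannot be told apart.

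IGF1 and IGF2 are small secreted proteins related to insulin that promote growth and survival. Both act through the tyrosine kinase receptor IGF1R, while IGF2R, which also carries mannose-6-phosphate tagged enzymes to lysosomes, takes up IGF2 for breakdown. Most IGF outside cells is held by binding proteins (IGFBPs), which prolong its life, keep it from the receptor, or release it when proteases cut them. In brain, IGF1 is known from microglia and neurons and IGF2 from the meninges and choroid plexus, and astrocytes in culture are known to release IGFBP2. B-27 itself contains insulin.

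Each sample was hybridised to 1 array of 23473 probes, of which 82.8 to 87.0% lay above background in Cre cultures and 87.4 to 90.7% in control cultures. Levels are normalised log2 intensities, and differences are Cre minus control in log2 units. The number of arrays limits the precision. All 10 IGF probes lay above background on all 6 arrays, where above background means brighter than the blank spots by 2 SD of these. Intensities of different probes are not comparable with each other, so no order among the 10 genes is given. The Chd7 probe M300016343 read 6.00, 5.97 and 6.01 on Cre arrays, against 6.92, 7.49 and 6.95 on control arrays, a difference of -1.13 (SE 0.16; limma adjusted p = 0.405 over all probes). The size of this difference moved with the background step: it was -2.71 in the authors' values, -2.71 where the blank mean was simply subtracted, -1.83 with an offset of 16 and -0.52 with the scanner's local background column. The other Chd7 probe, M400002483, differed by -0.11 (SE 0.06, limma adjusted p = 0.998), and by -0.53 in the authors' values, -0.42 after that subtraction and 0.04 with the local background column. This probe lay close to background, at 9, 6 and 11 in the authors' linear values on Cre arrays, against 11, 13 and 14 on control arrays. The astrocyte marker list gave 15 probes, of which 14 lay above 0 and 1 below (median 0.22), 5 of those above 0 at an unadjusted limma p under 0.05, against 2.77% of all probes, and 0 past adjustment. The smallest p-values belonged to Hepacam at 0.32 (SE 0.05), Aqp4 at 0.31 (SE 0.06) and Aldh1l1 at 0.72 (SE 0.17). Aqp4, the water channel of astrocytes, read 10.86, 10.87 and 10.93 on Cre arrays, against 10.69, 10.55 and 10.49 on control arrays.

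None of the 10 IGF genes passed the test between Cre and control cultures, in limma with Benjamini-Hochberg adjustment over 20540 probes at a threshold of 0.05 (adjusted p = 0.999 for each of the 10). The same holds for all probes, of which 0 (0%) passed. At an unadjusted p under 0.05 there were 0 of the 10 genes, against 5.61% of all probes (1153 of 20540). In 0 of the 10 genes did the Cre arrays lie apart from the control arrays without overlap, against 10.5% of all probes. Of the 10 differences 6 were above 0 and 4 below, with a median of 0.06, against -0.001 over all probes; in the authors' values the median was -0.06, against -0.163 over all probes. Without a block for the replicate number, the median absolute difference lay below the median standard error, over the 10 genes as over all probes. The median absolute difference was 0.13 over the 10 genes and 0.05 over all probes, beside median standard errors of 0.20 and 0.07. With the replicate number as a block in the fit, these median standard errors were 0.09 and 0.05. Much of the spread between arrays of 1 group went with the replicate number given in the labels, which is described after the single genes. Exact two-sided permutation tests over the 6 arrays gave p between 0.4 and 1 for the 10 genes, where 0.1 is the smallest value that 3 arrays against 3 allow.

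**Figure D1:**
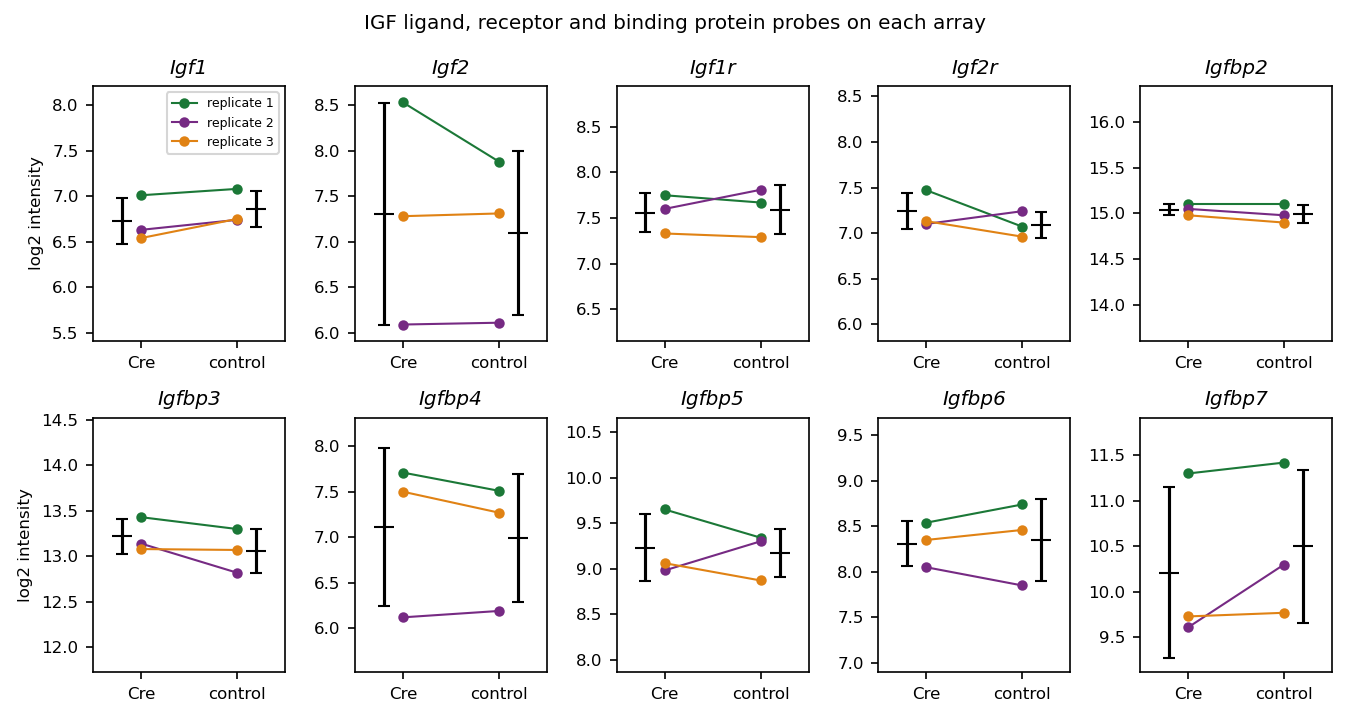
Log2 intensity of the 10 IGF probes, 1 panel a gene and the same span of values on every vertical axis, in Cre (left) and control (right) cultures; points are arrays, lines join arrays of the same replicate number, and black bars give the mean and SD (n = 3 per group). The lines of Igf2 lie far apart; that of replicate 1 stands at 8.53 in Cre and 7.88 in control cultures, and that of replicate 2 at 6.09 in Cre and 6.11 in control cultures.

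Among the ligands, Igf2 had the widest spread of all 10 genes. Igf2, a fetal growth factor expressed from the paternal copy in many tissues (probe M300000003), read 8.53, 6.09 and 7.28 log2 units in Cre replicates 1, 2 and 3, against 7.88, 6.11 and 7.31 in control replicates 1, 2 and 3. In both groups replicate 1 was high, replicate 2 close to background and replicate 3 between them, and the groups overlapped throughout. The difference was 0.20 (SE 0.74, 95% interval -1.63 to 2.04), or 1.15-fold with an interval of 0.322 to 4.10. By same-numbered pair it was 0.65, -0.02 and -0.03, so that pair 1 alone carried it. Its sign turned without Cre replicate 1 (-0.41) and without control replicate 2 (-0.28), and without Cre replicate 2 it was 0.82.

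Igf1, the growth hormone dependent ligand (probe M200001048), read 7.01, 6.63 and 6.54 in Cre cultures, against 7.08, 6.74 and 6.75 in control cultures. Replicate 1 was the highest in both groups, and the groups overlapped. The difference was -0.13 (SE 0.16, 95% interval -0.52 to 0.26). Each of the 3 pairs of equal number lay below 0, at -0.08, -0.11 and -0.21, while with the scanner's local background column the difference was 0.07. With the replicate number as a block in the limma fit, Igf1 was the only one of the 10 genes at an unadjusted p under 0.05 (SE 0.05, limma adjusted p = 0.52), against 9.34% of all probes in that fit (1918 of 20540), where again 0 (0%) passed after adjustment. Markers of microglia, a known source of IGF1 in brain, were measured beside it. Of the 16 microglia and macrophage probes 12 lay below 0 and 4 above, with a median of -0.14, and 0 passed. At an unadjusted limma p under 0.05 there were 7 below 0 and 1 above, against 2.85% of all probes below and 2.77% above. Their summed level in the authors' linear values was 304 to 408 in Cre cultures and 428 to 482 in control cultures, without overlap. In the authors' values all probes had a median difference of -0.163 log2 units, for which these sums were not corrected. Of all single probes, 10.5% lay without overlap in the normalised values. The smallest p-values among them belonged to the complement gene C1qa at -0.67 (SE 0.11), the lysosomal gene Cd68 at 0.48 (SE 0.08) and the adaptor gene Tyrobp at -0.26 (SE 0.06). P2ry12 and Ptprc, which define microglia and blood-derived cells, lay close to the blanks at 5 to 7 and 2 to 3 of the authors' units. In bulk samples, fewer cells of a type and less RNA per cell cannot be told apart, and the part of these markers in the Igf1 value was not tested.

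The receptors lay close together across arrays. Igf1r, the signalling receptor (probe M200002902), read 7.75, 7.60 and 7.33 in Cre cultures, against 7.67, 7.81 and 7.29 in control cultures. Replicate 3 was the lowest in both groups. The difference was -0.03 (SE 0.17, 95% interval -0.46 to 0.40). Igf2r, the receptor that removes IGF2 (probe M300003763), read 7.47, 7.10 and 7.13 in Cre cultures, against 7.07, 7.24 and 6.96 in control cultures. The highest value was that of Cre replicate 1, while the other 5 arrays, at 6.96 to 7.24, overlapped. The difference was 0.15 (SE 0.12, 95% interval -0.16 to 0.45), with pair values of 0.40, -0.13 and 0.18. The pairs thus differed in sign.

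Of the binding proteins, Igfbp2 varied least between arrays. Igfbp2, the binding protein known from cultured astrocytes (probe M200009370), read 15.10, 15.05 and 14.98 in Cre cultures, against 15.10, 14.98 and 14.90 in control cultures. Its spots, at 31612 to 38042 intensity units in Cre cultures and 30179 to 36203 in control cultures, lay below the brightest spot of their arrays (47705 to 58808). The difference was 0.05 (SE 0.06, 95% interval -0.11 to 0.21), the narrowest interval of the 10; in fold terms it ran from 0.927 to 1.16. Igfbp3, the main IGF carrier of blood (probe M200006403), read 13.43, 13.14 and 13.08 in Cre cultures, against 13.30, 12.82 and 13.07 in control cultures. The difference was 0.16 (SE 0.15, 95% interval -0.22 to 0.53), with pair values of 0.14, 0.32 and 0.01.

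Igfbp4, like Igf2, was lowest in replicate 2 of both groups. This inhibitory binding protein, which the protease PAPP-A cuts (probe M200004334), read 7.71, 6.12 and 7.50 in Cre cultures, against 7.51, 6.19 and 7.27 in control cultures. Replicate 2 was lower than the others by over 1 log2 unit in both groups. The difference was 0.12 (SE 0.54, 95% interval -1.23 to 1.47), and after blocking on the replicate number the same 0.12 had an SE of 0.08 (95% interval -0.10 to 0.34, limma adjusted p = 0.775). Igfbp6, which prefers IGF2 over IGF1 (probe M300003651), read 8.54, 8.05 and 8.35 in Cre cultures, against 8.74, 7.85 and 8.46 in control cultures. Here too replicate 2 was the lowest in both groups, and the difference was -0.04 (SE 0.25, 95% interval -0.67 to 0.59).

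Igfbp7, a matrix-associated protein that binds IGFs weakly (probe M200000191), read 11.30, 9.61 and 9.73 in Cre cultures, against 11.42, 10.30 and 9.77 in control cultures. Replicate 1 stood above the rest in both groups, by more than 1 log2 unit. The difference was -0.28 (SE 0.61, 95% interval -1.81 to 1.25), the largest in size of the 10 genes. It was below 0 in all 3 pairs, at -0.12, -0.69 and -0.04, and pair 2 gave most of it; without Cre replicate 2 the value was 0.02, and without control replicate 1 it was 0.18. Igfbp5, which binds extracellular matrix (probe M200000203), read 9.65, 8.98 and 9.06 in Cre cultures, against 9.34, 9.30 and 8.87 in control cultures. Replicate 2 was the lowest in Cre cultures and replicate 3 in control cultures, and the difference was 0.06 (SE 0.22, 95% interval -0.48 to 0.61). The RefSeq annotation of GRCm38.p6 places Igfbp2 and Igfbp5 beside each other on chromosome 1, with 0 genes between them. All 3 pairs had the same sign in 4 of the 10 genes (Igf1 and Igfbp7 below 0, Igfbp2 and Igfbp3 above 0), against 30.1% of all probes. For Igfbp2, pair 1 differed by 0.00 after rounding.

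**Figure D2:**
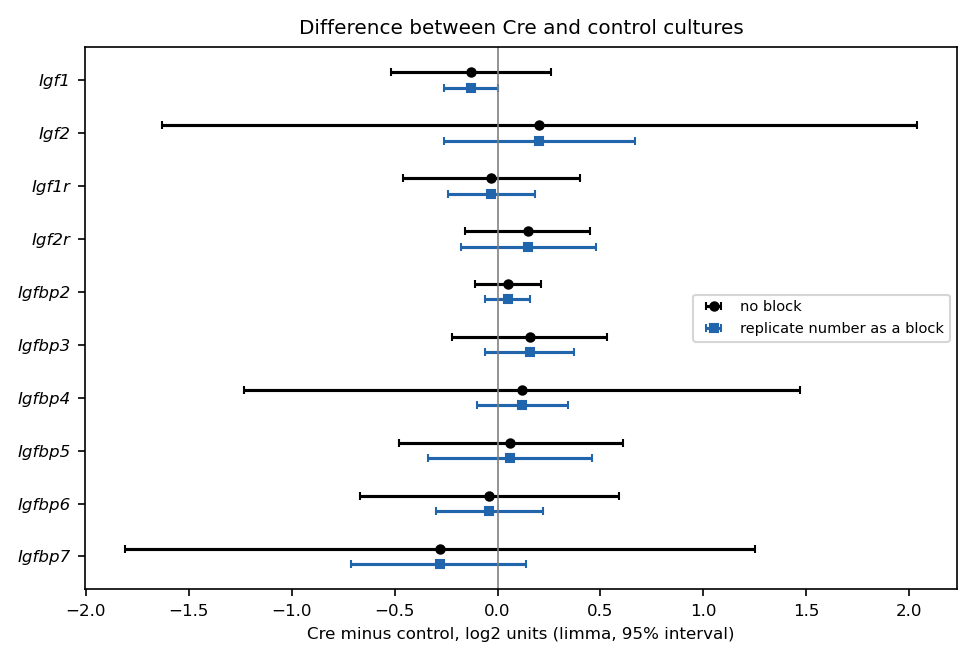
Cre minus control difference of the 10 IGF probes in log2 units with 95% limma intervals, without a block (circles) and with the replicate number as a block (squares), n = 3 arrays per group. Every interval without a block crosses 0; the block shortens that of Igfbp4 to -0.10 to 0.34, and only that of Igf1 then ends at 0 (-0.26 to 0.00).

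The spread within each group was then set against the replicate numbers, a comparison chosen after the values were seen. Cre and control arrays of the same number deviated together from their group means over all probes (r = 0.498, 0.425 and 0.436). Deviations from a group mean cancel out within the group. The negative values of other pairs of arrays (-0.373 to -0.167) therefore follow from these and are no separate result. What a number marks is not given in the labels. Of the sum of squares over the 6 arrays, the replicate number held 98.0% for Igfbp4, 95.4% for Igf2, 92.6% for Igfbp7, 91.7% for Igfbp6, 88.5% for Igf1r and 86.4% for Igf1. It was lower for Igfbp2 (81.2%), Igfbp3 (72.1%), Igfbp5 (71.5%) and Igf2r (32.1%). The median was 87.5% over the 10 genes and 46.9% over all probes, while the virus group held a median of 2.6% and 11.7%. The number held over 50% in 9 of the 10 genes, against 46.7% of all probes.

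In limma's F test of the replicate number, in a fit that also held the virus group, 0 of the 10 genes passed after adjustment, as for all probes (0%). At an unadjusted p under 0.05 there were 7 of the 10 genes, against 14.1% of all probes (2893 of 20540). These were Igfbp4 (limma adjusted p = 0.108), Igf2 (adjusted p = 0.137), Igfbp7 (adjusted p = 0.157), Igf1 (adjusted p = 0.182), Igfbp6 (adjusted p = 0.225), Igf1r (adjusted p = 0.273) and Igfbp3 (adjusted p = 0.312). With the scanner's local background column the count was 1 of the 10, against 2.8% of all probes. Under the other settings run it was 5 to 8, and the share of all probes was 5.94 to 22.4%. The lowest of these shares came with median scaling (5 genes) and the highest without Cre replicate 2 (8 genes).

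**Figure D3:**
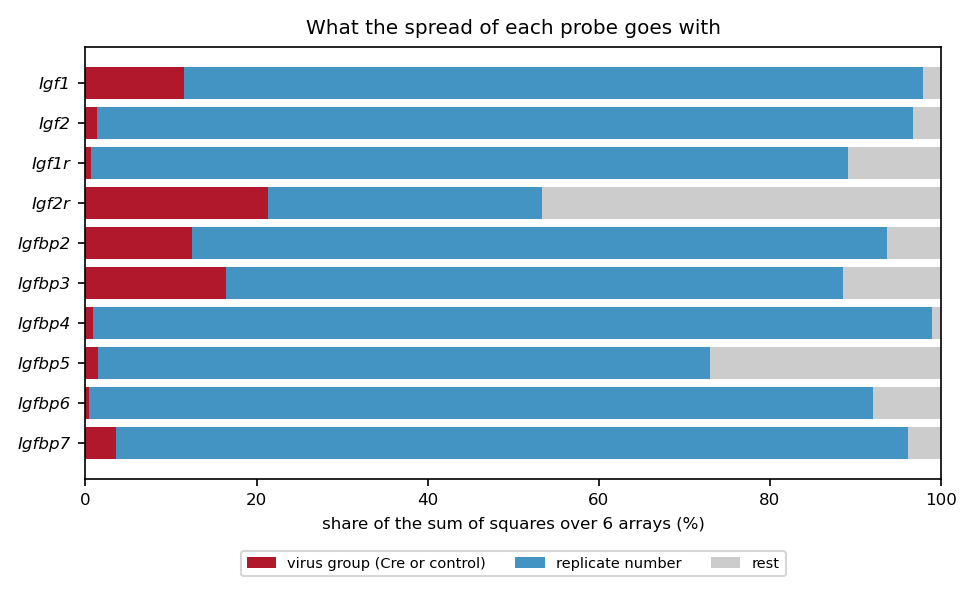
Share of each IGF probe's sum of squares over the 6 arrays that goes with the virus group, with the replicate number and with neither, in percent. The replicate number takes 98.0% for Igfbp4 and 95.4% for Igf2, but 32.1% for Igf2r.

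Replicate 1 exceeded replicate 2 for Igf2 by 5.41-fold in Cre cultures and 3.41-fold in control cultures. For Igfbp4 the same ratio was 3.02-fold in Cre cultures and 2.49-fold in control cultures, and for Igfbp7 it was 3.23-fold in Cre cultures and 2.18-fold in control cultures. The offset of 50 used in the background step compresses such ratios near background: in the authors' linear values Igf2 read 186, 10 and 62 in Cre replicates 1, 2 and 3, against 107, 12 and 67 in control replicates 1, 2 and 3. Igfbp4 read 95, 10 and 77 in those units in Cre cultures, against 77, 15 and 64 in control cultures. Igfbp7 read 1432, 375 and 468 in Cre cultures, against 1531, 814 and 537 in control cultures. The 3 profiles were not the same: replicate 3 stood near replicate 1 for Igfbp4, and far below it for Igfbp7.

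The upstream sequences of these 3 genes, the ones with the widest range over replicate numbers, are given with the motifs that a search found in them. They are the 250 bases before a RefSeq transcript start (RefSeq, GRCm38.p6), 5′ to 3′ on the gene's strand, with capitals for a GC box (GGGCGG) or a TATA box (TATAAA) on either strand. Igf2 has 4 such starts in the table, and the one shown, chr7:142657497-142657746 on the minus strand, is that with the most matches. Igfbp4 lies at chr11:99040994-99041243 on the plus strand and Igfbp7 at chr5:77408046-77408295 on the minus strand.
Igf2: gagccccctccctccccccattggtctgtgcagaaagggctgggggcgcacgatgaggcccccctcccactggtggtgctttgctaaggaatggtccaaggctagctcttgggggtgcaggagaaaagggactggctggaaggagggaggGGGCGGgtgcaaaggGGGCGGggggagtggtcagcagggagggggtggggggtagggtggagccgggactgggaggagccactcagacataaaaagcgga
Igfbp4: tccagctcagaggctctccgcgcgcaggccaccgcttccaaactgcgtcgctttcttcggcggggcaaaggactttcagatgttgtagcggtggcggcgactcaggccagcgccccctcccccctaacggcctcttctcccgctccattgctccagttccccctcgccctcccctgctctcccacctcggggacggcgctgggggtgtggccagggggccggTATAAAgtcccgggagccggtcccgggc
Igfbp7: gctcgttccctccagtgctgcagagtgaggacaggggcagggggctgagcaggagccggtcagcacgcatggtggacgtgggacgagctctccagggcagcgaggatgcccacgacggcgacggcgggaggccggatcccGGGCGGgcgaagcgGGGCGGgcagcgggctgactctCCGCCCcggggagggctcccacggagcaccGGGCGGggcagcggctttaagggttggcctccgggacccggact

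Igf2 held 2 GC boxes in that window, Igfbp7 held 4, and Igfbp4 held 1 TATA box. Over all 10 IGF genes the table gave 14 windows, of which 6 held a GC box and 2 a TATA box, the second in Igfbp6. Of all 32851 windows of this length, 32.7% held a GC box and 12.4% a TATA box. The motif TGTTTAC, which FOXO factors of the insulin pathway bind, was found on neither strand of the 14 windows and in 3.17% of all windows. CG dinucleotides numbered 6, 22 and 26 in the windows shown for Igf2, Igfbp4 and Igfbp7, with a median of 6 over all windows. A match is a stretch of letters and not a measured site.

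H19, the maternally expressed RNA that shares its imprinted region with Igf2, had the same order of replicates as Igf2 in both groups at the probe M300000002. The RefSeq annotation places both on chromosome 7 with 1 gene between them. This probe read 8.09, 6.06 and 7.47 in Cre replicates 1, 2 and 3, against 7.46, 6.24 and 7.40 in control replicates 1, 2 and 3. Of its sum of squares the replicate number held 93.0% (limma adjusted p = 0.183). The other H19 probe, M400008498, read 6.33, 5.86 and 6.26 in Cre cultures, against 6.09, 5.75 and 6.11 in control cultures, so that replicate 2 was again the lowest. Mmp2, a matrix protease that can cut IGFBPs, read 8.05, 6.03 and 7.0 in Cre cultures, against 7.59, 6.02 and 6.77 in control cultures, with 96.0% of its spread held by the replicate number.

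Some markers of fibroblasts and meninges varied with the same numbers. So did some markers of mural cells and endothelium, given further below. Of the 15 fibroblast and meninges probes 8 had an unadjusted limma p under 0.05 for the replicate number, against 14.1% of all probes. Between Cre and control cultures 11 of the 15 lay below 0 and 4 above, with 0 at that level without a block and 0 past adjustment. With the replicate number as a block 3 were below 0 at an unadjusted limma p under 0.05, against 9.34% of all probes in either direction. These were Mgp with pair values of -0.62, -0.43 and -0.83, Col3a1 (M300004916) with -0.62, -0.28 and -0.35, and Dcn with -0.36, -0.09 and -0.34 (limma adjusted p = 0.391, 0.391 and 0.45). The summed level of the list in the authors' linear values was 2551, 565 and 1506 in Cre replicates 1, 2 and 3, against 3765, 881 and 2133 in control replicates 1, 2 and 3. It was lower in Cre cultures in each of the 3 pairs. All probes had a median difference of -0.163 log2 units in the authors' values, for which the sums were not corrected. Mgp alone gave 1319, 42 and 435 of these units in Cre cultures, against 2016, 88 and 910 in control cultures. Mgp, a matrix protein gene with the widest range of the list, read 11.20, 7.05 and 9.63 log2 units in Cre cultures, against 11.82, 7.48 and 10.46 in control cultures (limma adjusted p = 0.0532 for the number). The collagen gene Col1a2 read 9.45, 6.94 and 8.92 in Cre cultures, against 9.92, 7.29 and 8.64 in control cultures. Col3a1, at the probe M300004916, read 8.72, 6.39 and 7.92 in Cre cultures, against 9.34, 6.67 and 8.27 in control cultures. Decorin (Dcn) read 6.87, 5.86 and 6.88 in Cre cultures, against 7.23, 5.95 and 7.22 in control cultures. Other markers of the list had another order. Ogn, a matrix protein gene, read 9.63, 9.65 and 9.87 in Cre cultures, against 10.13, 9.81 and 9.91 in control cultures, with 18.6% of its spread held by the number. Lum, which encodes lumican, was highest in replicate 3, at 6.31, 5.87 and 6.79 in Cre cultures, against 6.56, 5.89 and 7.21 in control cultures. Fbln1, Slc6a13, Slc22a6 and Postn lay close to the blanks at 2 to 7 of the authors' units. The smallest p-values between Cre and control cultures on this list belonged to Ogn at -0.23 (SE 0.11), Fbln1 at 0.08 (SE 0.04) and Slc6a13 at 0.05 (SE 0.03). The part of these markers in the Igf2, Igfbp4 and Igfbp7 values was not tested.

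Other cell types were read more briefly, by the sums of their lists, the smallest p-values between the groups and the replicate order of some markers. Aldoc, an enzyme gene of astrocytes, ran the other way, at 10.96, 12.26 and 11.93 in Cre cultures, against 10.70, 11.93 and 11.77 in control cultures. Replicate 1 was the lowest in both groups. The astrocyte markers did not share 1 order. Slc1a3 was also lowest in replicate 1 of both groups. Gja1 was not, at 11.53, 11.34 and 11.33 in Cre cultures, against 11.06, 11.67 and 11.09 in control cultures. Aqp4 was highest in replicate 1 of the control cultures. Ttr, the choroid plexus marker, read 6.88, 8.06 and 8.25 in Cre cultures, against 6.93, 7.83 and 8.40 in control cultures, so that it was lowest where Igf2 was highest. Its list summed to 246 to 511 of the authors' units in Cre cultures and 219 to 498 in control cultures. Of its probes 4 of 7 had an unadjusted limma p under 0.05 for the replicate number. Of all probes 14.1% were at that level, and this share stands beside the count of each list below. Between Cre and control cultures the smallest p-values on the Ttr list were those of Folr1 at 0.17 (SE 0.11), Tmem212 at 0.05 (SE 0.04) and Otx2 at -0.08 (SE 0.10). Tmem212 lay close to background at 2 to 4 of the authors' units. Mural cell markers summed to 9171 to 14930 in Cre cultures and 11623 to 16371 in control cultures, with 4 of 10 probes at that level; Des stood at 0.05 (SE 0.03), Pdgfrb at -0.06 (SE 0.08) and Rgs5 at 0.15 (SE 0.22). Endothelial markers summed to 94 to 126 in Cre cultures and 109 to 137 in control cultures (1 of 7). Ly6c1 stood at 0.14 (SE 0.06), Sox18 at 0.07 (SE 0.05) and Tie1 at 0.03 (SE 0.04). Sox18, at 1 to 5 of the authors' units, and Tie1 lay close to background. The 1 probe of this list at that level was Esam, with replicate 2 the lowest in both groups. It read 6.54, 6.05 and 6.56 in Cre cultures, against 6.78, 6.07 and 6.70 in control cultures. Kdr and Egfl7 did not share this order. Neuron markers summed to 438 to 551 in Cre cultures and 480 to 667 in control cultures (2 of 13). Of the neuron probes 8 lay above 0 and 5 below (median 0.01), with Neurod1 at 0.46 (SE 0.07), Nefm at 0.39 (SE 0.07), Nefl at 0.16 (SE 0.06) and, in the other direction, Stmn2 at -0.34 (SE 0.12). Oligodendrocyte lineage markers summed to 1704 to 2540 in Cre cultures and 1843 to 3366 in control cultures (2 of 11). Of these 4 lay above 0 and 7 below (median -0.01), with Cldn11 at 0.14 (SE 0.07), Cnp at 0.27 (SE 0.28) and Pdgfra at -0.07 (SE 0.07). Astrocyte markers summed to 8124 to 10105 in Cre cultures and 6131 to 10575 in control cultures (5 of 15). None of these genes passed between the groups.

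**Figure D4:**
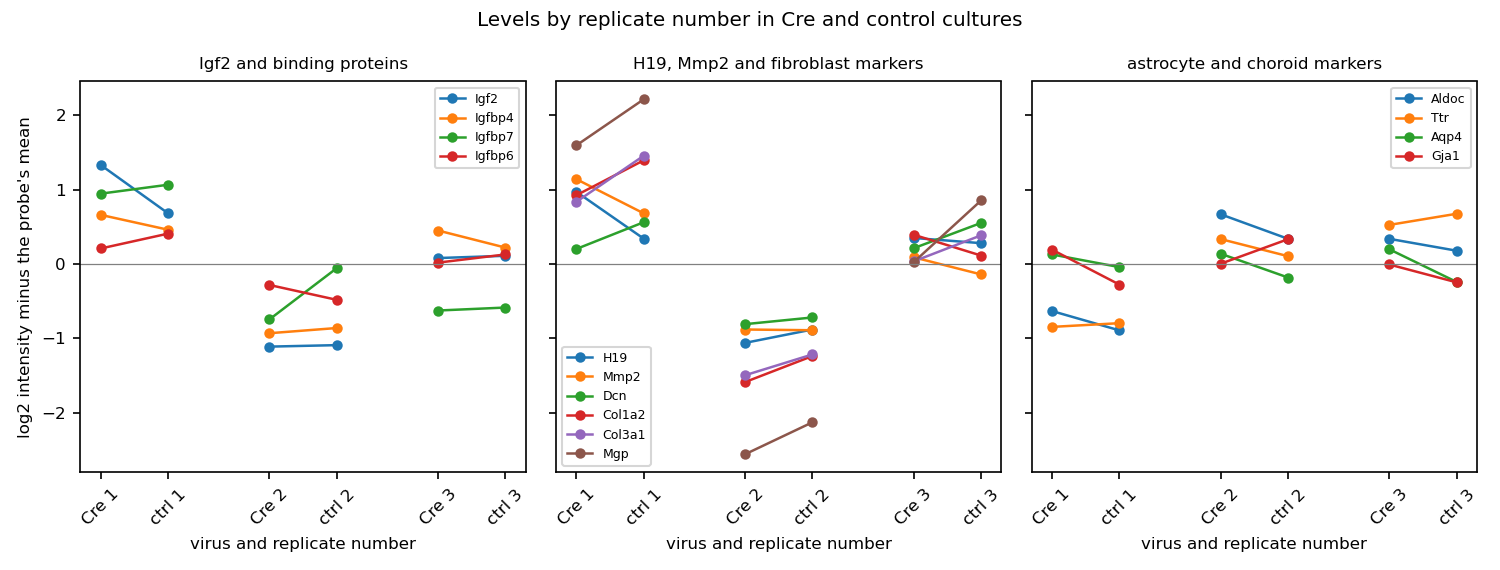
Log2 intensity minus each probe's mean over the 6 arrays, for Igf2 and 3 binding proteins (left), H19, Mmp2 and 4 fibroblast markers (middle) and 4 astrocyte or choroid plexus markers (right), by replicate number with Cre left of control (ctrl) in each pair. Igf2, H19, Mmp2 and the 4 fibroblast markers drawn are lowest in replicate 2 of both groups, where Igf2 stood at 6.09 in Cre and 6.11 in control cultures. Aldoc and Ttr are lowest in replicate 1 of both groups, and Aqp4 and Gja1 are not.

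The rest of the pathway was read from lists of relatives, proteases, signalling genes and targets, and no gene on these lists passed between Cre and control cultures. Among relatives of the family, 9 probes of 11 listed genes were measured, 7 above 0 and 2 below (median 0.02). The smallest p-values were those of the RNA-binding protein gene Igf2bp3 at -0.12 (SE 0.06), Igfbp1, a liver binding protein close to background here, at 0.07 (SE 0.05), Igflr1 at 0.05 (SE 0.05) and Igfbpl1 at 0.12 (SE 0.22). Igflr1 also lay close to background, at 1 to 5 of the authors' units. Igfbpl1, an IGFBP-like gene, was the one of these relatives at an unadjusted limma p under 0.05 for the replicate number (adjusted p = 0.228), and its order was another: 7.39, 7.65 and 8.13 in Cre cultures, against 7.35, 7.65 and 7.81 in control cultures. Igfals, which encodes the partner that holds IGFBP3 and IGF in blood, differed by 0.02 (SE 0.04) and lay close to background.

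Among receptors and partners that bind insulin or IGF, 10 probes split evenly, 5 above 0 and 5 below (median 0.01). The integrin gene Itga6 stood at 0.27 (SE 0.17), Itgb4 at 0.04 (SE 0.04), the glypican gene Gpc3 at -0.03 (SE 0.04) and the insulin receptor gene Insr at 0.03 (SE 0.04), the last close to background at 2 to 4 of the authors' units. Proteases that cut IGFBPs and their inhibitors gave 14 probes, 7 above 0 and 7 below, with a median of 0 after rounding. The plasminogen activator gene Plat stood at 0.26 (SE 0.13), Plg at -0.16 (SE 0.12), the PAPP-A inhibitor gene Stc2 at -0.08 (SE 0.07) and the lysosomal protease gene Ctsd at 0.19 (SE 0.17). Pappa, whose product cuts IGFBP4, differed by -0.03 (SE 0.04) and lay close to background at 2 to 4 of the authors' units.

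In the signalling arm below the receptors, adaptors and the PI3K-AKT genes gave 19 probes, 14 above 0 and 5 below (median 0.03). The kinase gene Akt2 stood at 0.25 (SE 0.13), the PI3 kinase subunit gene Pik3ca at 0.13 (SE 0.07), the exchange factor gene Sos1 at -0.09 (SE 0.06) and the lipid phosphatase gene Inppl1 at 0.12 (SE 0.07). Of these, Sos1 lay close to background at 6 to 14 of the authors' units. The mTOR and FOXO arm gave 17 probes, 9 above 0 and 8 below (median 0.03). Deptor, an mTOR inhibitor, stood at 0.14 (SE 0.05, limma adjusted p = 0.861) and Gsk3b at -0.22 (SE 0.09). The mTOR activator gene Rheb stood at -0.25 (SE 0.11) and the Foxo3 probe M400013007 at 0.43 (SE 0.19), while the other Foxo3 probe differed by 0.03 (SE 0.04). Deptor, at 4 to 9 of the authors' units, and the other Foxo3 probe, at 6 to 8, lay close to background. Rheb read 11.93, 12.04 and 12.03 in Cre cultures, against 12.25, 12.44 and 12.04 in control cultures, and the closest arrays of the groups were equal to 2 decimals.

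FOXO target genes, which the pathway holds down when it is active, gave 17 probes, 9 above 0 and 8 below (median 0.01). The kinase gene Pdk4 at 0.24 (SE 0.07, limma adjusted p = 0.727) and the ubiquitin ligase gene Fbxo32 at 0.18 (SE 0.07, limma adjusted p = 0.813) lay above 0, and Sesn3 stood at 0.30 (SE 0.14) and Gadd45a at -0.21 (SE 0.14). Imprinted growth genes and regulators of Igf2 gave 16 probes, 10 above 0 and 6 below (median 0.01). Phlda2, a placental growth inhibitor close to background here, stood at 0.19 (SE 0.05, limma adjusted p = 0.704). Ctcf, whose protein acts as an insulator in the imprinted region of Igf2 and H19, stood at -0.15 (SE 0.06). Snrpn stood at -0.19 (SE 0.10) and the cell cycle inhibitor gene Cdkn1c at 0.30 (SE 0.17). At an unadjusted limma p under 0.05 without a block, the 7 lists held Deptor, Pdk4, Fbxo32 and Phlda2 above 0 and 0 probes below, against 2.77% of all probes above 0 and 2.85% below.

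**Figure D5:**
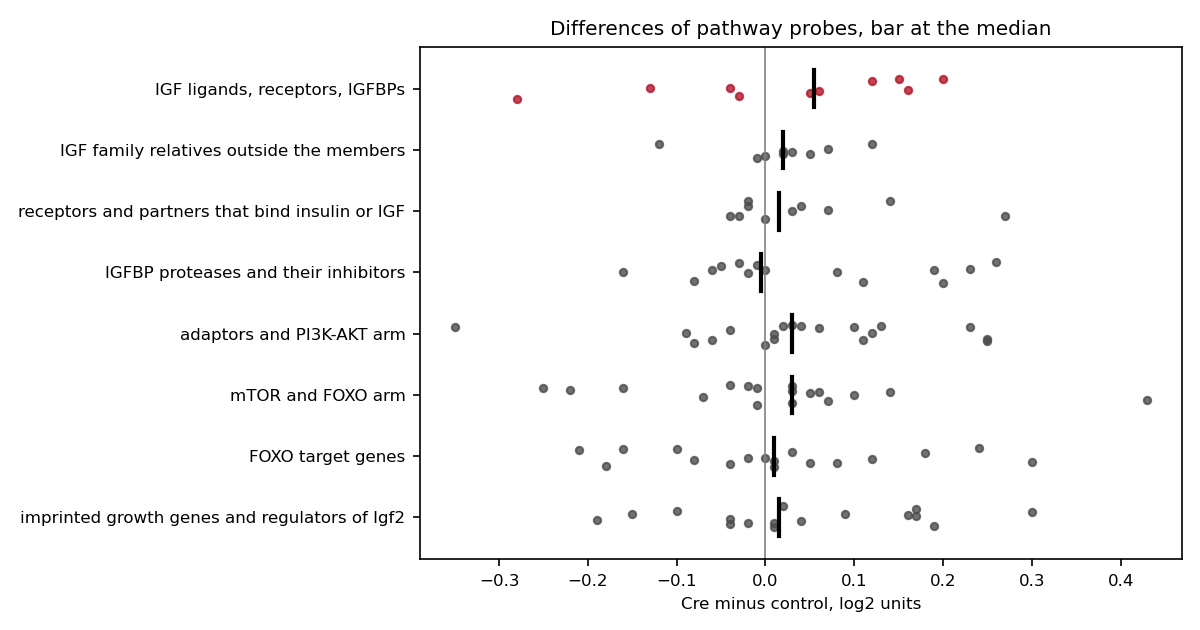
Cre minus control differences in log2 units of the 10 IGF probes (top) and of the probes of 7 further lists, with a bar at each median; vertical scatter within a row only separates points. All medians lie between 0 and 0.06 after rounding, and no probe shown passed after adjustment.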

How the data were processed

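Per the labels' protocols, aminoallyl RNA was made by amplification and carried Cy5 as its only dye. Per the file headers, the deposited scanner tables give each spot's median intensity and its local background intensity, with no subtraction. The authors' table of processed intensities is linear; set against the scanner files, each column is the spot median less about the blank mean, divided by 1 factor per array (1.44 to 1.93), with a median of 25. No source used here gives the reason for those factors.

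The 2736 blank spots served as negative controls in a normexp correction of the spot medians (nec of limma, offset 50), and values were log2 transformed and quantile normalised; 0 to 9 marked probe spots per array were left out. Probes above the blank mean by 2 SD on at least 3 arrays were kept (20540 of 23473). Blank spots averaged 62.4 to 70.8 units. Symbols came from the platform annotation, checked through Entrez identifiers (20556 probes matched, 0 symbols changed; 2783 probes are unnamed here). Groups were compared with limma 3.58.1 in R 4.3.3 (two-sided lmFit and eBayes) and adjusted by Benjamini-Hochberg over all kept probes, and the fit was tested on simulated data. The replicate numbers of the labels were taken to pair the samples, because same-numbered arrays deviated together (r = 0.498, 0.425 and 0.436); the labels name no shared animal or day. The labels do not say that replicates came from separate cultures, and p-values then reflect only how these arrays differ, possibly for technical reasons. The F test of the replicate number was added after seeing the data. All probes of the IGF genes are named; each further list gives the 4 genes, and each marker list the 3 markers, with the smallest p, and genes beyond that were named after their values were seen. The genes and lists were chosen with earlier results of these data known.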

Additional observations from a re-analysis of the deposited data

How the results depend on the processing

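No IGF gene passed under any of the alternatives run, which changed the background, the values used, the normalisation, the offset, the filter on dim probes, the variance trend, the replicate block and single arrays. The local background column turned the sign for Igf1 (0.07), Igf1r (0.09), Igfbp2 (-0.84), Igfbp3 (-0.91), Igfbp6 (0.10), Igfbp7 (0.10) and the Chd7 probe M400002483 (0.04), and gave 0.60 for Igfbp5; the authors' values turned it for Igfbp2 (-0.02) and Igfbp5 (-0.11); the cause was not tested. With single arrays left out the difference ran from -0.27 to -0.02 for Igf1, -0.41 to 0.82 for Igf2, -0.18 to 0.08 for Igf1r, 0.03 to 0.22 for Igf2r, 0 to 0.11 for Igfbp2, 0.03 to 0.27 for Igfbp3, -0.27 to 0.63 for Igfbp4, -0.14 to 0.19 for Igfbp5, -0.28 to 0.16 for Igfbp6 and -0.82 to 0.18 for Igfbp7. Besides the arrays named above for Igf2 and Igfbp7, the sign turned without Cre replicates 1 or 3 or control replicate 2 for Igfbp4, without Cre replicate 1 or control replicate 3 for Igfbp5, without Cre replicate 2 or control replicates 1 or 3 for Igfbp6, and without Cre replicate 3 or control replicates 1 or 2 for Igf1r. The median of the 10 genes was -0.06 in the authors' values, where all probes had a median of -0.163, and -0.15 to 0.15 with single arrays left out (-0.15 without Cre replicate 1, -0.08 without control replicate 2).

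The count of all probes past the threshold was 0, except 4 in the authors' values (none of them an IGF gene). At an unadjusted limma p under 0.05 it was 1153 in the main fit, 615 with median scaling, 1918 with the replicate block and 849 to 1355 with single arrays left out. After adjustment the block changed no call. List medians in the authors' values were -0.07 (relatives), -0.11 (receptors), -0.17 (proteases), -0.07 (PI3K-AKT), -0.11 (mTOR and FOXO), -0.17 (FOXO targets) and -0.11 (imprinted genes). With the local background column they were 0.08 for relatives, 0.13 for receptors and for PI3K-AKT, 0.08 for mTOR and FOXO and 0.11 for imprinted genes. Plain subtraction of the blank mean gave 0.10 for relatives and 0.05 for receptors, an offset of 16 gave 0.04 for relatives, and median scaling gave -0.04 for FOXO targets. With single arrays left out the medians ran from 0 to 0.03 for relatives, -0.02 to 0.04 for receptors, -0.02 to 0.03 for mTOR and FOXO and -0.02 to 0.09 for FOXO targets. Dim probes such as Igf2 and Igfbp4 in replicate 2 are limited by signal over background.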
